A study of Mus musculus with 21 samples.

Results

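Protein-folding chaperones of the endoplasmic reticulum (ER), the cytosol and the mitochondria, with the enzymes and sensors that work beside them, were followed in splenic T cells with and without a constitutively active interleukin-6-type receptor chain. The group holds 37 of the 51201 genes in the deposited count tables, listed by name. Earlier results of these data were known when the list was chosen. All 37 symbols matched an Ensembl gene in the tables of CD4+ and CD8+ cells. Of these, 22 belong to the ER, 12 to the cytosolic heat shock system with its transcription factor Hsf1, and 3 to the mitochondria.

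The 4 groups were CD4+ cells of L-gp130fl/+;CD4Cre+/- mice (6 libraries), CD4+ cells of CD4Cre+/- mice (6), CD8+ cells of L-gp130fl/+;CD4Cre+/- mice (3) and CD8+ cells of CD4Cre+/- mice (6). All mice were C57BL/6J at postnatal day 35, and all carry Cre driven by the Cd4 promoter, so the controls differ from L-gp130 mice in the L-gp130 allele and not in Cre. L-gp130 is a gp130 chain that signals without a cytokine, and Cre recombination switches it on in cells that express, or descend from cells that expressed, Cd4. CD4+ cells were taken from spleen by positive and CD8+ cells by negative magnetic selection, so the kit goes with the cell type. Polyadenylated RNA was sequenced unstranded, and CD4 and CD8 libraries carry their own mouse numbers within each group. The sources used here do not say whether a CD4 and a CD8 library came from the same mouse.

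Proteins that enter the secretory pathway fold in the ER with the help of the Hsp70 protein BiP (Hspa5), the Hsp90 protein Grp94 (Hsp90b1), the lectin chaperones calnexin and calreticulin (Canx, Calr) and the protein disulfide isomerases. When unfolded protein builds up there, the sensors Atf6, Ire1 (Ern1) and Perk raise the transcription of such genes, a programme that plasma cells and activated lymphocytes use as they expand their secretory pathway. Cytosolic and mitochondrial chaperones answer to Hsf1, which heat, stress and the handling of tissue can activate, and Hsc70 (Hspa8) and Hsp90 beta (Hsp90ab1) are also made at high levels by unstressed and dividing cells.

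In CD4 cells depth went with genotype, at 17781325 to 21226374 estimated counts in L-gp130 and 27855745 to 35869240 in control libraries, while CD8 libraries held 17217503 to 19476944. Socs3, a target of gp130 signalling, was at 264 to 432 CPM (TMM-normalised counts scaled to library size) in L-gp130 CD4 and 116 to 140.2 CPM in control CD4 libraries, and at 444 to 514 and 115 to 171 CPM in L-gp130 and control CD8 libraries. On the second principal component of the CD4 libraries L-gp130 replicate 1 lay far from the rest, reads of 1 control CD4 library went against its labelled sex, and control CD8 replicates 1 to 3 separated from control CD8 replicates 4 to 6 on the second component of the CD8 libraries. Sex went partly with genotype in CD4 cells. Of the control CD4 libraries only replicate 1 is labelled male, and of the L-gp130 CD4 libraries only replicates 2 and 6 are labelled female. The labelled sex was kept in the reported fits. Summed T cell markers were at 2634 to 3724 and 2743 to 3385 CPM in L-gp130 and control CD4 libraries. They were at 3469 to 3879 and 4187 to 4853 CPM in L-gp130 and control CD8 libraries. In CD8 cells 4 of the 8 markers were lower (Cd8a, Cd8b1, Cd3d and Cd3g), against 10.5% of all genes tested. Haemoglobin and other erythroid transcripts summed to 6765 to 38916 and 4772 to 26811 CPM in L-gp130 and control CD4 libraries, against at most 671 CPM in any CD8 library.

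The promoters of 28 of the 37 members are in the RefSeq window set used here (build GRCm38.p6, 250 bases before to 50 bases after a start site). Printed below are windows that hold the ER stress response element, which Atf6 and Xbp1 with NF-Y are known to bind, or the heat shock element, which Hsf1 binds. They are shown as examples of the elements that link these genes to the ER and heat shock programmes, although most members with a window carry neither. Capitals mark the fixed letters of the motif on either strand. These are CCAAT and CCACG with 9 free bases between them for the ER element, and GAA, TTC and GAA with 2 free bases between neighbours for the heat shock element.
Hspa5, chr2:34771840-34772139, plus strand: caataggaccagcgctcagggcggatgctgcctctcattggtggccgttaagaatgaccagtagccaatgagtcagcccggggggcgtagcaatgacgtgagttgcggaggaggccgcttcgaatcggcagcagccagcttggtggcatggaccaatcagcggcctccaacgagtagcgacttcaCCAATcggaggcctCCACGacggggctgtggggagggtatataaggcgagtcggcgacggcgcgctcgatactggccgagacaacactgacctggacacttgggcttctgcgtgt
Hsp90b1, chr10:86705395-86705694, minus strand: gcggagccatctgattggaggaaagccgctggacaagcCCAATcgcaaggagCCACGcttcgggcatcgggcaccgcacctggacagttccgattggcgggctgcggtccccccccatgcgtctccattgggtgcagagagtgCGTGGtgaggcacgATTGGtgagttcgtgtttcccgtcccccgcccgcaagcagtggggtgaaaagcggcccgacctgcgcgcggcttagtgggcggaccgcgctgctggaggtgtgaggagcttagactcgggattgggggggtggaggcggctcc
Pdia6, chr12:17266339-17266638, plus strand: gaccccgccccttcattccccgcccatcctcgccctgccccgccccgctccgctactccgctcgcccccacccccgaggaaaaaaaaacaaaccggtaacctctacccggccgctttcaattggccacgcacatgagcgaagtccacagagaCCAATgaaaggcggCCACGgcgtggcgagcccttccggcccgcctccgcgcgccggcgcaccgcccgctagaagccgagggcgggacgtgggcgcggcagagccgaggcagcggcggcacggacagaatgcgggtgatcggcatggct
Creld2, chr15:88819396-88819695, plus strand: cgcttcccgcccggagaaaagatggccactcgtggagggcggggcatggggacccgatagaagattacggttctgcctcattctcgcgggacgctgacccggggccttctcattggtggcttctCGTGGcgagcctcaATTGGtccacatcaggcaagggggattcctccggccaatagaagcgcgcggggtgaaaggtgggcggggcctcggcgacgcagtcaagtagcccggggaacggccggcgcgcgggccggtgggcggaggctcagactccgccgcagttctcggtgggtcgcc
Syvn1, chr19:6046326-6046625, plus strand: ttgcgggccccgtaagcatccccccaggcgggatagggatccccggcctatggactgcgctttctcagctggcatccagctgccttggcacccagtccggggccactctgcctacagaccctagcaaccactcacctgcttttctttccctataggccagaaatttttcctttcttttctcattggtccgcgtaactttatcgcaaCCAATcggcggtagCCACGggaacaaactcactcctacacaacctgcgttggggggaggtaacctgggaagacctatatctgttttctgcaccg
Hspe1, chr1:55087898-55088197, plus strand: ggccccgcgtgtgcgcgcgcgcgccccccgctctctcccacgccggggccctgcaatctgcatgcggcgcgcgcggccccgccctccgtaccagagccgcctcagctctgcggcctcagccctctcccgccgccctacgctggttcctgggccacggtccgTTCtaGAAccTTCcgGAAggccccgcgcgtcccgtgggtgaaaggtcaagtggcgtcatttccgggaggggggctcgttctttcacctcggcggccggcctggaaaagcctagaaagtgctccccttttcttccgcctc
Hsph1, chr5:149636287-149636586, minus strand: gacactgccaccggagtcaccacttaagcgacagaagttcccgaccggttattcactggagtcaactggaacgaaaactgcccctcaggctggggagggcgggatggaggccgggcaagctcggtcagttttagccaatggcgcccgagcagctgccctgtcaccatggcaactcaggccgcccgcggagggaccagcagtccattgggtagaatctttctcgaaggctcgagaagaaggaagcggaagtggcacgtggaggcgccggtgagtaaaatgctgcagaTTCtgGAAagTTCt
The ER element was found in 8 of the 18 ER members with a window (Hspa5, Hsp90b1, Calr, Canx, Pdia6, Dnajc3, Creld2 and Syvn1), in 0 of 8 cytosolic and 0 of 2 mitochondrial members, and in 0.119% of all 32851 windows. Hsp90b1 held it on both strands. The heat shock element was found in 0 of the 18 ER members, in Hsph1 among the 8 cytosolic members, and in both mitochondrial members with a window, against 0.603% of all windows. Hspd1 and Hspe1 are transcribed head to head, and the overlapping matches in the Hspe1 window, on both strands, are the same bases that the Hspd1 window reads from the other side. The shorter unfolded protein response element TGACGTGG was in no member's window and in 0.676% of all windows. A match is a run of letters and not a bound site, and a window without one says only that these letters are not in it.

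Compared per transcript length, cytosolic chaperones were the most abundant members. Hspa8, the constitutive cytosolic Hsp70, ranked first of the 37 in all 4 groups, at 1493 ± 310.4 TPM (length-corrected transcript abundance, mean ± SD) in L-gp130 CD4 (n = 6), 870.1 ± 93 in control CD4 (n = 6), 1333 ± 121 in L-gp130 CD8 (n = 3) and 986 ± 232 in control CD8 libraries (n = 6). Hsp90ab1 came second in all 4, at 939.7 ± 117, 646 ± 44.9, 868 ± 23.2 and 711 ± 72.5 TPM in the same order of groups. The next rank differed by cell type. In CD4 cells it was Calr, the ER lectin chaperone, at 399.6 ± 45.1 TPM in L-gp130 and 286 ± 25.9 TPM in control libraries. In CD8 cells it was Hspe1, the small subunit of the mitochondrial chaperonin, at 307 ± 28.7 TPM in L-gp130 and 313 ± 29.9 TPM in control libraries, which differed by less than their SD. Among ER members, Calr was followed in L-gp130 CD4 libraries by Hspa5 at 260.4 ± 33 TPM and Pdia3 at 246 ± 21.2 TPM, a pair that lay within 1 SD of each other. At the low end stood the sensors Atf6 and Ern1, at 10.3 ± 0.916 and 5.78 ± 0.753 TPM in L-gp130 CD4 libraries, with the co-chaperone Bag3 at 7.53 ± 1.17 TPM, and below all of these the stress-inducible Hsp70 genes Hspa1a and Hspa1b and the small heat shock protein Hspb1, none of which passed a group mean of 2 TPM.

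**Figure D1:**
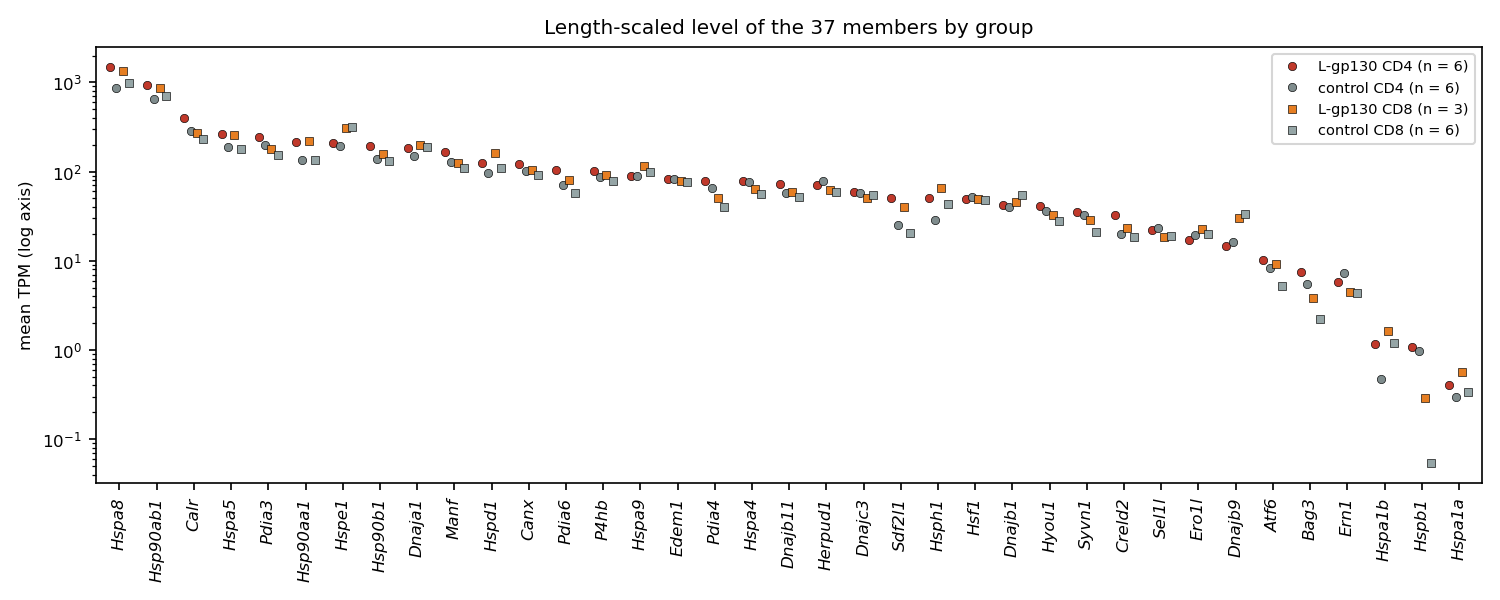
Mean TPM of the 37 members (log axis) in L-gp130 CD4 (n = 6), control CD4 (n = 6), L-gp130 CD8 (n = 3) and control CD8 libraries (n = 6), with genes ordered by the L-gp130 CD4 mean. Hspa8 and Hsp90ab1 stand highest in all 4 groups, and Hspa1a, Hspa1b and Hspb1 lowest.

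The first comparison asks what active gp130 signalling changed in CD4 cells. Of the 37 members, 21 were higher in L-gp130 CD4 cells and 0 lower (edgeR quasi-likelihood F test with sex as covariate, Benjamini-Hochberg adjusted p under 0.05 over all 15016 genes tested). Over all genes tested, 11.1% were called higher and 7.75% lower. The median log2 fold change was 0.37 over the members and -0.01 over all genes tested. By compartment, 13 of 22 ER, 7 of 12 cytosolic and 1 of 3 mitochondrial members were higher. In 17 of the 37, every L-gp130 CD4 library lay above every control CD4 library, as did 7.68% of all genes tested, and in 0 of the 37 was every one below (5.85% of all genes tested). Without L-gp130 CD4 replicate 6, 9 members were called, 3 of them in the ER, and without control CD4 replicate 6 the ER count was 8. Over all genes, fits with 1 CD4 library left out called 1411 to 3642, against 2836 with every library. With sex taken from the reads in place of the label, 22 members were called. RNA was measured in bulk, so a change per cell and a change in the share of cells of a kind cannot be told apart.

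**Figure D2:**
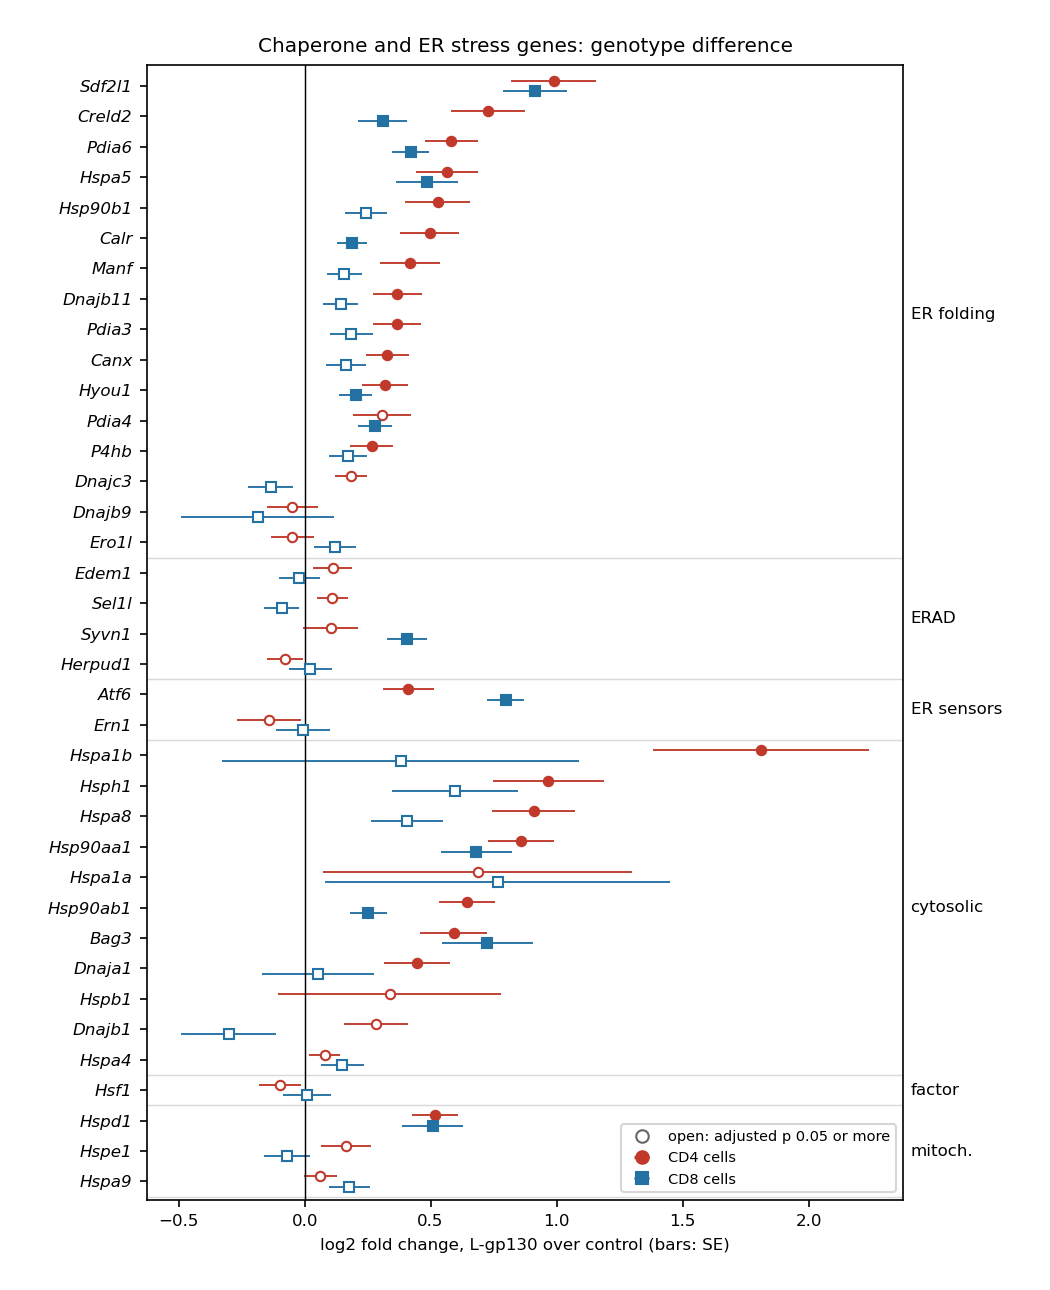
Log2 fold change of each member, L-gp130 over control, with its SE, in CD4 cells (circles) and CD8 cells (squares), ordered within each role by the CD4 value. Filled symbols passed the edgeR test at an adjusted p under 0.05, and no filled symbol lies below 0.

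Of the 16 ER chaperones and folding enzymes, 12 were higher in L-gp130 CD4 cells and 4 did not pass, with a median log2 fold change of 0.37 over the 16. With the summed level of plasma cell markers as a covariate, given further on, 0 of the 22 ER members were called by edgeR (6 at an unadjusted p under 0.05). Sdf2l1 (ENSMUSG00000022769, chr16:17130138-17132383, minus strand), which works with the ER J-domain proteins to keep BiP substrates soluble, had the largest fold change of the ER members. It ran at 28.1, 36 and 53.8 CPM (lowest, median and highest) in L-gp130 CD4 libraries, against 15.3, 17.7 and 21.4 CPM in control CD4 libraries. No value overlapped, and the log2 fold change was 0.99 ± 0.17 (SE, edgeR adjusted p = 0.00159). Creld2 (ENSMUSG00000023272, chr15:88819646-88826683, plus strand), an ER protein with disulfide isomerase activity, was at 27.5, 30.7 and 48.5 CPM in L-gp130 CD4 and 17.8, 19 and 21.4 CPM in control CD4 libraries. Its groups did not overlap either, with L-gp130 replicate 1 at the top of its group and the other 5 libraries within 27.5 to 35.1 CPM, and its log2 fold change was 0.73 ± 0.15 (edgeR adjusted p = 0.00483).

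Pdia6 (ENSMUSG00000020571, chr12:17266545-17284770, plus strand), a disulfide isomerase that binds BiP, was at 134, 154 and 187 CPM in L-gp130 CD4 and 89.8, 98.9 and 114 CPM in control CD4 libraries. All 6 L-gp130 libraries were above all 6 controls, with a log2 fold change of 0.58 ± 0.10 (SE, edgeR adjusted p = 0.00239). BiP itself, Hspa5 (ENSMUSG00000026864, chr2:34771970-34777547, plus strand), which holds unfolded chains and keeps the sensors inactive, was at 381, 483 and 562 CPM in L-gp130 CD4 and 271, 327 and 357 CPM in control CD4 libraries. The ranges came close, 381 against 357 CPM, but did not overlap, and the log2 fold change was 0.56 ± 0.12 (edgeR adjusted p = 0.00754). Hsp90b1 (ENSMUSG00000020048, chr10:86690209-86705509, minus strand), needed for Toll-like receptors and integrins to fold, was at 338, 425 and 532 CPM in L-gp130 CD4 and 257, 274 and 332 CPM in control CD4 libraries. Here too the lowest L-gp130 library was above the highest control, with a log2 fold change of 0.53 ± 0.13 (SE, edgeR adjusted p = 0.0131). A pseudogene on the opposite strand covers 10.3% of the exon bases of Hsp90b1, at a mean of 6.13 CPM in CD4 libraries.

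The other 7 called folding genes moved less. The calreticulin gene Calr had a log2 fold change of 0.50, Manf, a secreted ER protein that is released under stress, 0.42, the BiP co-chaperone Dnajb11 0.37, the glycoprotein isomerase Pdia3 0.37, calnexin (Canx) 0.33, the large Hsp70 Hyou1 0.32 and P4hb, the founding disulfide isomerase, 0.27, with edgeR adjusted p between 0.0109 and 0.047. In 6 of the 7 the groups did not overlap, and in Hyou1 they did. Leaving out 1 library ended the call for P4hb in 9 of 12 fits, for Hyou1 in 6, for Manf in 5, for Canx and Dnajb11 in 3 each and for Calr and Pdia3 in 1 each. All 7 were lost without L-gp130 CD4 replicate 6. The CD4 calls for Hspa5 and Hsp90b1, and those for Atf6, Hsph1 and Dnaja1 given below, were lost without it too (edgeR adjusted p between 0.0549 and 0.0982). Pdia4, Dnajc3, Dnajb9 and Ero1l did not pass the test. Pdia4 (ENSMUSG00000025823, chr6:47796141-47813430, minus strand), a disulfide isomerase, was at 116, 138 and 158 CPM in L-gp130 CD4 and 94.7, 99 and 127 CPM in control CD4 libraries, which overlapped (log2 fold change 0.31 ± 0.12, edgeR adjusted p = 0.0839). Dnajb9, a J-domain protein that turns off Ire1 and is among its targets, was at 24.3 ± 2.81 CPM in L-gp130 CD4 and 25.5 ± 2.03 CPM in control CD4 libraries (SD, n = 6 each, edgeR adjusted p = 0.773). The oxidase Ero1l, which feeds disulfides to the isomerases, had 47.4 ± 4.27 and 51.3 ± 5.13 CPM in L-gp130 and control CD4 libraries (edgeR adjusted p = 0.727).

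The second comparison is the same genotype difference in CD8 cells, where 13 of the 36 members tested were higher and 0 lower, against 10.5% of the 14254 genes tested called higher and 10.5% lower. Hspb1 was too low to be tested. The members' median log2 fold change was 0.19, and -0.01 over all genes tested. Every L-gp130 library was above every control library in 11 members tested, as in 11.7% of all genes tested, a share that 3 libraries reach more easily than 6. By compartment, 9 of 22 ER, 3 of 11 cytosolic and 1 of 3 mitochondrial members were called. These counts fell when any 1 of the 3 L-gp130 CD8 libraries was left out. Called were 6 members without replicate 1 (5 ER, 1 cytosolic, 0 mitochondrial), 5 without replicate 2 (4, 1 and 0) and 7 without replicate 3 (4, 2 and 1). Over all genes, fits with 1 CD8 library left out called 1374 to 2967, against 2996 with every library. With reads per transcript summed per gene in place of the gene table, 20 members were higher. Macrophage markers moved with genotype in the other direction, with 4 of 8 lower (C1qa, C1qb, Vcam1 and Spic). Their summed level was 442, 365 and 268 CPM in L-gp130 CD8 and 365, 484 and 763 CPM in control CD8 libraries. Vcam1 averaged 10.5 ± 3.85 CPM in L-gp130 CD8 and 61 ± 20.3 CPM in control CD8 libraries (log2 fold change -2.57 ± 0.36, edgeR adjusted p = 0.00175). The part of these markers in the chaperone result was not tested.

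In CD8 cells the ER folding genes that passed were Sdf2l1, Hspa5, Pdia6, Pdia4, Creld2, Hyou1 and Calr, 7 of 16. Sdf2l1 was at 32.6, 30.2 and 39.3 CPM in the 3 L-gp130 CD8 libraries, against 14, 17.3 and 22.2 CPM (lowest, median and highest of 6) in control CD8 libraries. The groups did not overlap, and its log2 fold change of 0.91 ± 0.13 was close to the 0.99 of CD4 cells (edgeR adjusted p = 0.000967). Pdia6 was at 111, 119.8 and 131 CPM in L-gp130 CD8 and 82.3, 90.2 and 101 CPM in control CD8 libraries. With no overlap, its log2 fold change was 0.42 ± 0.07 (edgeR adjusted p = 0.00319).

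Hspa5 was at 469.5, 484 and 489.6 CPM in the L-gp130 CD8 libraries, all of them above the control CD8 libraries at 249, 341 and 428 CPM (log2 fold change 0.48 ± 0.12, edgeR adjusted p = 0.02). Its log2 fold change was 0.66 without control CD8 replicates 1 to 3 and 0.33 without control CD8 replicates 4 to 6. The Hspa5 call was lost on leaving out any 1 of the 3 L-gp130 CD8 libraries (edgeR adjusted p at most 0.0806). Pdia4 had 83.5, 89.5 and 103 CPM in L-gp130 CD8 and 69.1, 74.7 and 85.9 CPM in control CD8 libraries. One control library, at 85.9 CPM, lay above the lowest L-gp130 library, and the log2 fold change was 0.28 ± 0.07 (edgeR adjusted p = 0.0159). The Pdia4 call was lost without L-gp130 CD8 replicate 2 or L-gp130 CD8 replicate 3 (edgeR adjusted p at most 0.101). Creld2 was at 25.3, 28.1 and 28.4 CPM in L-gp130 CD8 and 19.1, 22.6 and 24.5 CPM in control CD8 libraries, close but without overlap (log2 fold change 0.31 ± 0.10, edgeR adjusted p = 0.0454). The call for Creld2 was lost on leaving out any 1 of 8 of the 9 libraries.

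Calr was at 454, 443 and 491 CPM in L-gp130 CD8 and 367, 409.8 and 439 CPM in control CD8 libraries, and Hyou1 at 118, 134 and 132 CPM in L-gp130 CD8 and 102, 111 and 121 CPM in control CD8 libraries. Calr did not overlap, while control replicate 6, at 121 CPM, was above L-gp130 replicate 1 for Hyou1. Their log2 fold changes were 0.19 ± 0.06 and 0.20 ± 0.07 (edgeR adjusted p = 0.0442 and 0.0492), and these calls were lost in 7 and 8 of the 9 fits with 1 library left out.

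Hsp90b1, called in CD4 cells, was at 300.2, 323 and 374 CPM in L-gp130 CD8 and 238, 281 and 333 CPM in control CD8 libraries. These overlapped, and the log2 fold change of 0.24 ± 0.08 did not pass (edgeR adjusted p = 0.0614). Dnajb9 is described because of its spread, and was chosen after its values were seen. It ran at 39.6, 42.8 and 50.4 CPM in L-gp130 CD8 libraries, below control CD8 replicates 1 to 3 at 69.8, 64.2 and 65 CPM and overlapping control CD8 replicates 4 to 6 at 35.4, 26.2 and 40.4 CPM. Its log2 fold change was -0.19 ± 0.30 over all controls (edgeR adjusted p = 0.702), -0.59 against replicates 1 to 3 alone (edgeR adjusted p = 0.00506) and 0.39 against replicates 4 to 6 alone (edgeR adjusted p = 0.0449).

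**Figure D3:**
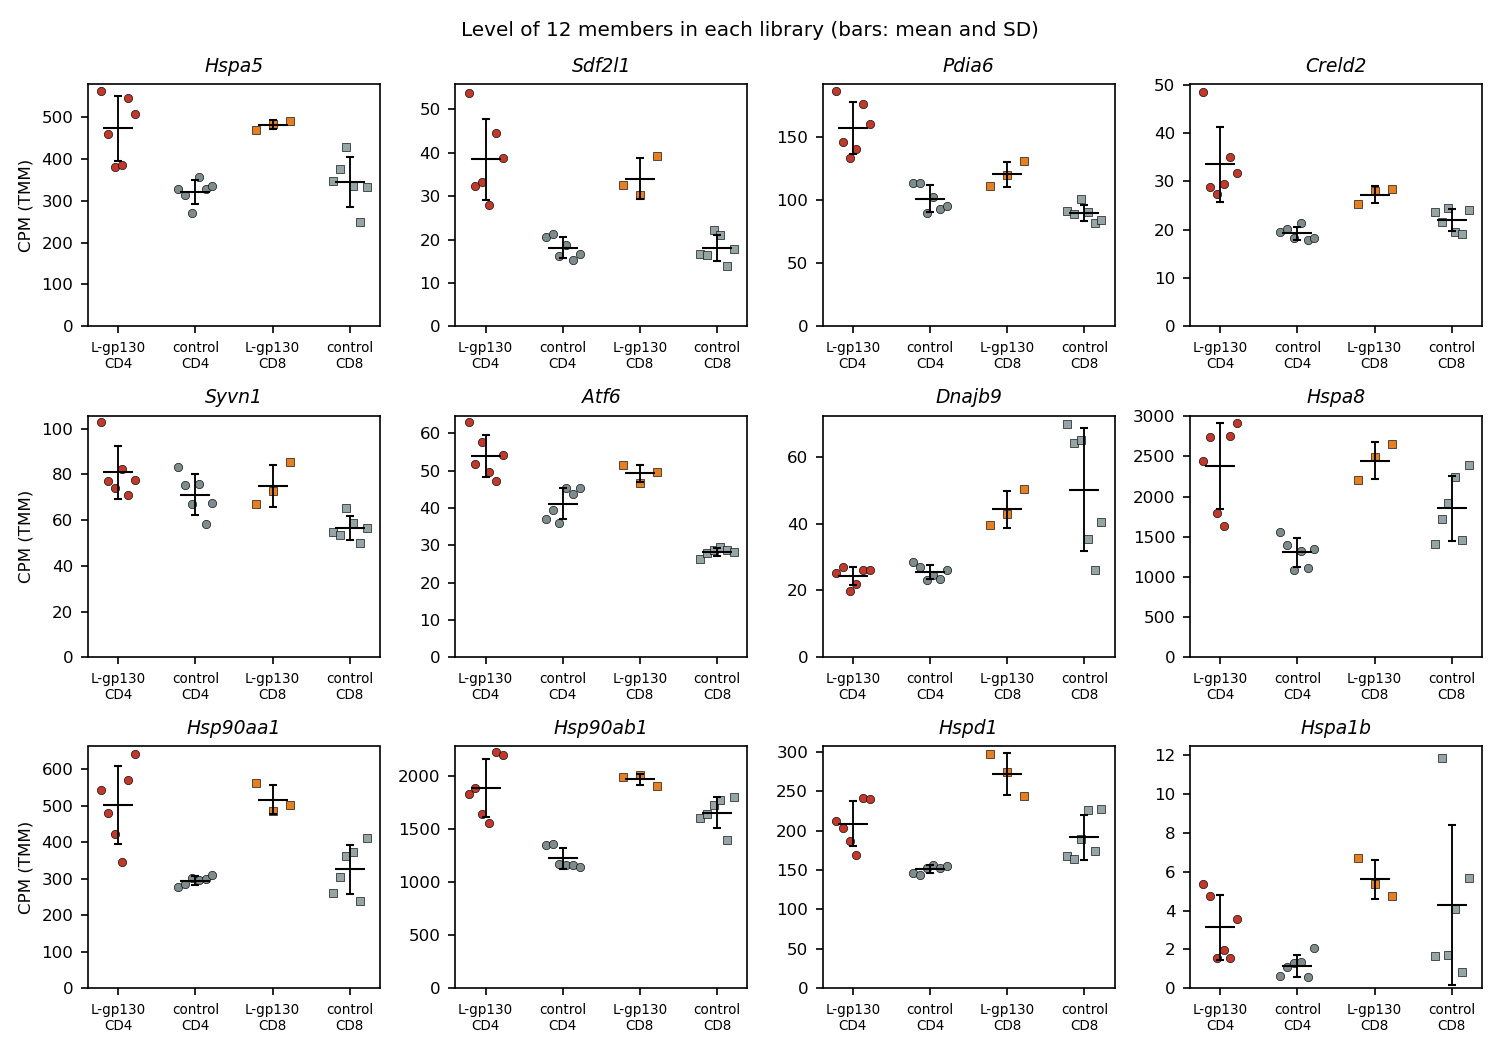
CPM of 12 members in each library, with group mean and SD, for L-gp130 CD4 (n = 6), control CD4 (n = 6), L-gp130 CD8 (n = 3) and control CD8 (n = 6). Hspa5, Sdf2l1, Pdia6, Creld2, Atf6, Hsp90aa1, Hsp90ab1 and Hspd1 show no overlap of L-gp130 with control in either cell type. Control CD8 values of Dnajb9 fall into a set at 26.2 to 40.4 CPM and a set at 64.2 to 69.8 CPM.

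Of the machinery that removes misfolded proteins from the ER, 0 of 4 members passed the edgeR test in CD4 cells. Their log2 fold changes lay between -0.08 (Herpud1, a scaffold of the ubiquitin ligase complex) and 0.11 (Edem1, which picks glycoproteins for disposal), with Sel1l, the adaptor of the ligase, at 0.11 and Syvn1, the ligase Hrd1, at 0.10, and with 0 of 4 at an unadjusted p under 0.05 (lowest 0.101; DESeq2 also called 0). In CD8 cells Syvn1 (ENSMUSG00000024807, chr19:6046576-6053712, plus strand) was the member of the 4 that passed. It was at 67, 72.6 and 85.2 CPM in L-gp130 CD8 and 50.0, 55.5 and 65.2 CPM in control CD8 libraries, where the lowest L-gp130 value lay above the highest control at 65.2 CPM (log2 fold change 0.41 ± 0.08, edgeR adjusted p = 0.00532). In CD4 cells Syvn1 overlapped, at 70.9, 77.4 and 103 CPM in L-gp130 libraries and 58.2, 71.5 and 83.2 CPM in control libraries (edgeR adjusted p = 0.537). The difference between these Syvn1 effects did not pass its own test (-0.21 ± 0.16, CD4 minus CD8 on the log2 scale, edgeR adjusted p = 0.539).

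Of the stress sensors among the members, Atf6 was higher in both cell types and Ern1 passed in neither. Atf6 (ENSMUSG00000026663, chr1:170704674-170867771, minus strand), a transcription factor that is cut free from the ER membrane under stress, was at 47.3, 53 and 62.9 CPM in L-gp130 CD4 libraries, above all control CD4 libraries at 36, 41.6 and 45.3 CPM (log2 fold change 0.41 ± 0.10, edgeR adjusted p = 0.0147). In CD8 cells it was at 51.4, 46.7 and 49.6 CPM in L-gp130 libraries, far above controls that were tightly grouped at 26.4, 28.6 and 29.5 CPM. That log2 fold change of 0.80 ± 0.07 had the lowest adjusted p of the members in CD8 cells (edgeR adjusted p = 9.59e-05). Ern1 (ENSMUSG00000020715, chr11:106394650-106487852, minus strand), the kinase and nuclease Ire1 that splices Xbp1, was at 22.5, 24.9 and 33.9 CPM in L-gp130 CD4 and 24.5, 31.9 and 34.8 CPM in control CD4 libraries, and at 23.6, 18.3 and 23.3 and 19.1, 22.1 and 23.5 CPM in L-gp130 and control CD8 libraries. All of these overlapped, and neither log2 fold change passed (-0.14 ± 0.13 in CD4 and -0.01 ± 0.11 in CD8, edgeR adjusted p = 0.469 and 0.978). The gene of the other sensor, Perk (Eif2ak3), is no member and was chosen after its values were seen. It was lower in CD4 cells, averaging 40.3 ± 4.21 CPM in L-gp130 libraries, against 50.4 ± 4.26 CPM in control libraries (log2 fold change -0.35 ± 0.09, edgeR adjusted p = 0.0216). It did not pass in CD8 cells (-0.14 ± 0.15, edgeR adjusted p = 0.573).

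Of the cytosolic heat shock genes, 7 of 12 were higher in L-gp130 CD4 cells. Their median log2 fold change was 0.62, and that of the 22 ER members 0.32. Hspa8 (ENSMUSG00000015656, chr9:40800984-40810087, plus strand), which folds newly made proteins and uncoats clathrin vesicles, was at 1639, 2587 and 2917 CPM in L-gp130 CD4 libraries, against 1081, 1337 and 1565 CPM in control CD4 libraries. The lowest L-gp130 library was above the highest control, and the log2 fold change was 0.91 ± 0.17 (edgeR adjusted p = 0.00268). Hsp90aa1 (ENSMUSG00000021270, chr12:110690605-110702728, minus strand), the inducible cytosolic Hsp90, was at 346, 512 and 642 CPM in L-gp130 CD4 and 277, 298 and 310.4 CPM in control CD4 libraries. The controls lay in a narrow band and the L-gp130 libraries all above it (log2 fold change 0.86 ± 0.13, edgeR adjusted p = 0.000778). Hsp90ab1 (ENSMUSG00000023944, chr17:45567775-45573271, minus strand), its constitutive partner, was at 1561, 1859 and 2226 CPM in L-gp130 CD4 and 1141, 1168 and 1358 CPM in control CD4 libraries, again without overlap (log2 fold change 0.64 ± 0.11, edgeR adjusted p = 0.00173).

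Bag3 (ENSMUSG00000030847, chr7:128523616-128546981, plus strand), the co-chaperone that steers Hsp70 clients to autophagy, was at 13.2, 14.4 and 18.4 CPM in L-gp130 CD4 and 9.19, 10.5 and 12 CPM in control CD4 libraries, without overlap (log2 fold change 0.59 ± 0.13, edgeR adjusted p = 0.00899). Hsph1, a nucleotide exchange factor of Hsp70 whose window carries the heat shock element, showed a log2 fold change of 0.97 ± 0.22 (SE, edgeR adjusted p = 0.0113), with 1 L-gp130 library, at 67.0 CPM, inside the control range of 49.8 to 81.7 CPM. Dnaja1, an Hsp40 partner of Hsp70, had 0.45 ± 0.13 (edgeR adjusted p = 0.0323), also with overlap, lost its call in 7 of 12 fits with 1 library left out, and shares 7.05% of its exon bases with Smu1 on the opposite strand. Dnajb1, the stress-induced Hsp40, and Hspa4, another exchange factor, did not pass, at log2 fold changes of 0.28 ± 0.13 and 0.08 ± 0.06 (edgeR adjusted p = 0.134 and 0.383).

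The stress-inducible Hsp70 genes were scarce. Hspa1b (ENSMUSG00000090877, chr17:34956436-34959238, minus strand) was at 1.55, 2.78 and 5.4 CPM in L-gp130 CD4 and 0.56, 1.19 and 2.1 CPM in control CD4 libraries. Some libraries overlapped, and the log2 fold change was 1.81 ± 0.43 (edgeR adjusted p = 0.0114). Its near-identical neighbour Hspa1a (ENSMUSG00000091971, chr17:34969190-34972156, minus strand) was at 0.603, 0.816 and 3.09 CPM in L-gp130 CD4 and 0.288, 0.825 and 1.18 CPM in control CD4 libraries, with the top value in L-gp130 replicate 1 and a log2 fold change of 0.69 ± 0.61 (SE, edgeR adjusted p = 0.464). Reads may be split between the pair, whose promoter windows are identical at 296 of 300 bases, and with their counts summed the log2 fold change in CD4 cells was 1.51 (edgeR adjusted p = 0.0332). In CD8 cells Hspa1b was at 6.72, 5.37 and 4.75 CPM in L-gp130 libraries and 0.815, 2.91 and 11.9 CPM in control libraries, where control replicate 2 was above all other CD8 libraries, and Hspa1a was at 2.27, 1.92 and 1.83 CPM in L-gp130 libraries and 0.163, 0.826 and 2.59 CPM in control libraries. Neither passed in CD8 cells (edgeR adjusted p = 0.743 and 0.462). Hspb1 was at 0.727 ± 0.419 CPM in L-gp130 CD4 and 0.636 ± 0.228 CPM in control CD4 libraries (SD, n = 6 each).

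Hsf1 (ENSMUSG00000022556, chr15:76477422-76501913, plus strand), the heat shock transcription factor, is controlled largely at the protein level, and its transcript did not pass in either cell type. It was at 53.2, 60.8 and 75.2 CPM in L-gp130 CD4 and 56.3, 62.9 and 69.4 CPM in control CD4 libraries, and at 71.1, 75.9 and 79 and 65.9, 74.3 and 87.7 CPM in L-gp130 and control CD8 libraries. The groups overlapped in both (log2 fold change -0.10 ± 0.08 in CD4 and 0.01 ± 0.10 in CD8, edgeR adjusted p = 0.453 and 0.96).

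In CD8 cells 3 of the 11 cytosolic members tested were higher, with a median log2 fold change of 0.38. Hsp90aa1 was at 562, 487 and 501 CPM in L-gp130 CD8 libraries, all above control CD8 libraries at 241, 335 and 412 CPM (log2 fold change 0.68 ± 0.14, edgeR adjusted p = 0.00819). Hsp90ab1 was at 1992, 2012 and 1912 CPM in L-gp130 CD8 and 1399, 1686 and 1802 CPM in control CD8 libraries, likewise without overlap (log2 fold change 0.25 ± 0.07, edgeR adjusted p = 0.0327). Bag3 was at 8.13, 9.88 and 8.75 CPM in L-gp130 CD8 and 4.51, 5.08 and 7.23 CPM in control CD8 libraries, where control replicate 4 stood above the other 5 controls but below all L-gp130 libraries (log2 fold change 0.72 ± 0.18, edgeR adjusted p = 0.0174). With 1 library left out, the call was lost in 4 of 9 fits for Hsp90ab1, in 2 for Bag3 and in 1 for Hsp90aa1. The most abundant member, Hspa8, was at 2201, 2490.4 and 2656 CPM in L-gp130 CD8 and 1406, 1817 and 2391 CPM in control CD8 libraries. Its ranges overlapped, and the log2 fold change of 0.41 ± 0.14 did not pass (edgeR adjusted p = 0.071).

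The number of cytosolic members called in CD8 cells changed with the controls used. Without control CD8 replicates 1 to 3, 0 of the 11 cytosolic members were called by edgeR (4 at an unadjusted p under 0.05), and for Hsp90aa1 the log2 fold change was 0.61 (edgeR adjusted p = 0.0542). Without control CD8 replicates 4 to 6, 5 were called, Hspa8 among them at a log2 fold change equal to 0.55 (edgeR adjusted p = 0.00406). Control CD8 replicates 4 and 6 had the highest summed cytosolic levels of the controls, at 5341 and 5662 CPM, and control CD8 replicate 5 the lowest at 3764 CPM. The ER counts under the same changes were 8 and 10, with Dnajc3 also lower in the first and Dnajb9 in the second. Without control CD8 replicate 4 alone 5 cytosolic members were called.

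Of the mitochondrial chaperones, Hspd1 (ENSMUSG00000025980, chr1:55077835-55088243, minus strand), the Hsp60 that folds imported proteins, was higher in both cell types. It was at 169, 207 and 241 CPM in L-gp130 CD4 libraries, all above control CD4 libraries at 143, 152 and 156 CPM (log2 fold change 0.52 ± 0.09, edgeR adjusted p = 0.00233). In CD8 cells it was at 298, 274 and 244 CPM in L-gp130 libraries and 164, 182 and 227 CPM in control libraries, also without overlap (log2 fold change 0.51 ± 0.12, edgeR adjusted p = 0.015). That call was lost without control CD8 replicates 1 to 3, where the log2 fold change stood at 0.38 (edgeR adjusted p = 0.056). It was also lost without L-gp130 CD8 replicate 1 or L-gp130 CD8 replicate 2 (edgeR adjusted p at most 0.0886). Its co-chaperonin Hspe1, which shares the divergent promoter shown above, did not pass, with log2 fold changes of 0.17 ± 0.10 in CD4 and -0.07 ± 0.09 in CD8 cells (edgeR adjusted p = 0.264 and 0.633). The genes share 112 exon bases on opposite strands, so unstranded reads there cannot be told apart. Hspa9, the mitochondrial Hsp70, did not pass either (0.06 ± 0.07 and 0.18 ± 0.08, edgeR adjusted p = 0.545 and 0.148).

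Set side by side, 11 of the 36 members tested in both cell types were called higher in both: Hspa5, Calr, Pdia6, Sdf2l1, Creld2, Hyou1, Atf6, Hsp90aa1, Hsp90ab1, Hspd1 and Bag3. Another 10 were called in CD4 cells alone, 2 in CD8 cells alone (Pdia4 and Syvn1), and 13 in neither. Such a split does not show that effects differ, and the test of the difference itself, an interaction term fitted over the 21 libraries together, called 0 of 37 members, against 3.46% of the 15758 genes tested (1.83% higher and 1.62% lower). The nearest was Atf6, whose log2 fold change was smaller in CD4 than in CD8 cells by -0.42 ± 0.12 (CD4 minus CD8, edgeR adjusted p = 0.0629). It passed with DESeq2 (adjusted p = 0.0314) and with no sex covariate in edgeR (adjusted p = 0.0357). For Hspa8 the difference was 0.44 ± 0.20 and for Hspa5 0.17 ± 0.16 (edgeR adjusted p = 0.252 and 0.627). At an unadjusted p under 0.05 the difference passed in 8 of 37. Leaving out 1 library called Atf6 in 3 cases (L-gp130 CD4 replicate 1, control CD4 replicate 1 or control CD4 replicate 3; edgeR adjusted p between 0.00928 and 0.0483) and Dnajc3 in 1 (control CD8 replicate 3).

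The last comparison sets control CD4 against control CD8 cells. Of the 37 members, 5 were higher and 17 lower in control CD4 than in control CD8 libraries, where 24.3% of all genes tested were higher and 27.2% lower. Cytosolic and mitochondrial genes made up most of the lower set, with 8 of 12 and 3 of 3 called lower, while 6 of 22 ER members were. Log2 differences, CD4 minus CD8, were -0.67 ± 0.13 for Hspa8, -0.56 ± 0.09 for Hsp90ab1, -0.75 ± 0.09 for Hspe1 and -1.12 ± 0.20 for Dnajb9 (edgeR adjusted p at most 0.000213). For Dnajb9 this pools control CD8 libraries at 64.2 to 69.8 CPM (replicates 1 to 3) with those at 26.2 to 40.4 CPM (replicates 4 to 6). The 5 higher in CD4 cells were Pdia4 at 0.38 ± 0.10, Atf6 at 0.44 ± 0.08, Ern1 at 0.37 ± 0.10, Bag3 at 0.82 ± 0.12 and Hspb1, which had no reads in 4 of 6 control CD8 libraries in the gene table. The number of ER members lower was 1 to 3 with RLE size factors, no filter, DESeq2, a replicate block or joined gene tables. Markers of other cells and of handling differed as well. In control CD4 against control CD8 libraries 2 of 19 handling and immediate early genes were higher and 16 lower (median log2 difference -1.44), and 8 of 8 B cell, 7 of 7 erythroid and 7 of 8 macrophage markers were higher (medians 3.97, 5.45 and 1.76). Their part in the chaperone differences was not tested, and selection kit and cell type cannot be told apart here.

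The summed level of the 22 ER members was 3627, 4168 and 4793 CPM in L-gp130 CD4 and 2978, 3109 and 3414 CPM in control CD4 libraries, and that of the 12 cytosolic members 4174, 5795 and 6586 CPM in L-gp130 CD4 and 3132, 3440.2 and 3851 CPM in control CD4 libraries. Neither sum overlapped between the groups. Divided by the cytosolic sum, the ER sum was 0.652 to 0.869 in L-gp130 CD4 and 0.886 to 0.977 in control CD4 libraries, so every L-gp130 library had less ER per cytosolic transcript than every control. In CD8 libraries the ratio was 0.607, 0.594 and 0.626 in L-gp130 and 0.560 to 0.769 in control libraries, which overlapped. The ER sum was 3375, 3484 and 3718 CPM in L-gp130 CD8 libraries, above all control CD8 libraries at 2773, 3088 and 3262 CPM. The cytosolic sum was 5561, 5861 and 5937 CPM in L-gp130 CD8 libraries, of which replicate 1 lay below the highest of the controls at 3764, 4579.9 and 5662 CPM. These sums are dominated by a few abundant genes and carry no test.

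**Figure D4:**
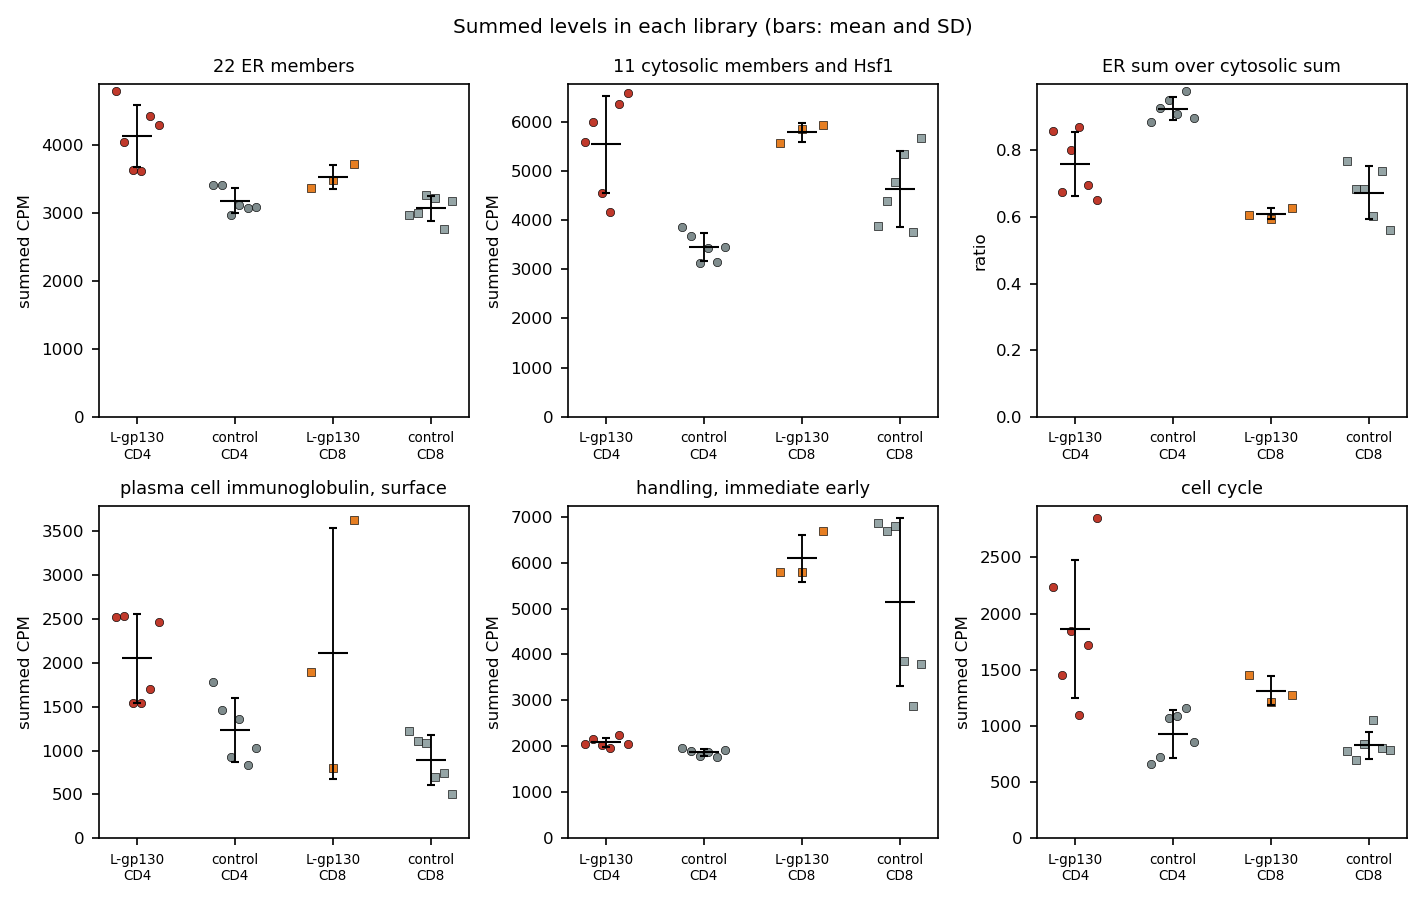
Summed CPM per library of the ER and cytosolic members, the ratio of those sums, and the summed CPM of plasma cell immunoglobulin and surface markers, of handling and immediate early genes and of cell cycle genes, with group mean and SD, for L-gp130 CD4 (n = 6), control CD4 (n = 6), L-gp130 CD8 (n = 3) and control CD8 (n = 6). The ER to cytosolic ratio of every L-gp130 CD4 library lies below every control CD4 library, and the immediate early sum of control CD8 libraries falls into a set at 2871 to 3862 CPM and a set at 6688 to 6863 CPM.

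Plasma cells are rich in the ER genes described, and their transcripts moved with genotype in CD4 cells as well. Counts of markers are read against the shares of all genes tested. These were 11.1% higher and 7.75% lower in CD4 cells and 10.5% each way in CD8 cells. The 12 immunoglobulin and surface markers summed to 1544, 2084 and 2534 CPM in L-gp130 CD4 and 833, 1194 and 1778 CPM in control CD4 libraries, which overlapped in part, and 7 of the 11 tested were higher. Jchain, the joining chain of secreted IgM and IgA, was at 116 ± 39.1 CPM in L-gp130 CD4 and 35.3 ± 10.3 CPM in control CD4 libraries (SD, n = 6 each, log2 fold change 1.77 ± 0.27, edgeR adjusted p = 0.00131), and Igkc, the kappa light chain, at 438 ± 136 and 209.7 ± 85.5 CPM. The surface markers were low, with Sdc1 (CD138) at 2.76 to 4.66 CPM in L-gp130 CD4 and 2.49 to 4.13 CPM in control CD4 libraries and Tnfrsf17 (BCMA) under 1 CPM in all 12. None of the markers Jchain, Sdc1, Tnfrsf17, Derl3 and Mzb1 was at 0 in any library. Of the 10 secretory plasma cell genes, some of which activated T cells also use, 4 were higher and 1 lower in L-gp130 CD4 cells, Derl3 and Xbp1 among the higher. B cell markers summed to 244 to 630.5 CPM in L-gp130 CD4 and 263 to 966 CPM in control CD4 libraries, with 3 of 8 lower.

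In CD8 cells the same immunoglobulin and surface list summed to 1892, 799 and 3633 CPM in L-gp130 libraries and 509.9, 914 and 1223 CPM in control libraries. Of its 12 markers 2 were higher, against 10.5% of all genes tested. The 10 secretory genes summed to 300 to 350 CPM in L-gp130 CD8 and 223 to 265 CPM in control CD8 libraries, without overlap. Of these 10, 3 were higher (Xbp1, Irf4 and Pou2af1) and 0 lower. Of the L-gp130 CD8 libraries, replicate 2 had the lowest immunoglobulin and surface sum and replicate 3 the highest. Of the ER members called in CD8 cells, Sdf2l1, Calr and Atf6 were also lowest in replicate 2. Hspa5, Pdia6, Pdia4, Creld2, Hyou1 and Syvn1 were lowest in replicate 1, with Hspa5 within 469.5 to 489.6 CPM in the 3. The order of these libraries was not tested. The log2 sum of the immunoglobulin and surface list served as the plasma cell covariate. With it, 2 of the 37 members were called higher in CD4 cells, Hsp90aa1 and Hspd1. Of the 22 ER members 0 were (edgeR, with 6 of 22 at an unadjusted p under 0.05). In that fit Hspa5 stood at a log2 fold change equal to 0.39 (edgeR adjusted p = 0.17), Sdf2l1 0.66 (edgeR adjusted p = 0.0644) and Pdia6 0.36 (edgeR adjusted p = 0.0761). Hyou1 stood at 0.12 with the covariate and 0.32 without it, Pdia4 at 0.03 and 0.31, and the median over the 22 ER members at 0.16 and 0.32. Over all genes, the calls in CD4 cells went down to 1270, against 2836 without it. The plasma cell sum and the genotype move together in CD4 cells, and their parts cannot be told apart by such a fit. In CD8 cells 5 members were called with it (Atf6, Hspd1, Sdf2l1, Hsp90aa1 and Pdia6). The median log2 fold change there was 0.26 with the covariate and 0.19 without it over the members tested, and 0.22 and 0.18 over the ER members.

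Heat shock genes are easily raised while cells are isolated, so they were set beside 19 handling and immediate early genes. These summed to 1967, 2054 and 2239 CPM in L-gp130 CD4 and 1771, 1888 and 1968 CPM in control CD4 libraries, ranges that met at their ends. Of the 19, 8 were higher and 1 lower. Their log2 fold changes ran from -0.53 to 1.43, with 13 positive and 6 negative. Fos was at 11.4 ± 2.94 CPM in L-gp130 CD4 and 4.97 ± 0.814 CPM in control CD4 libraries (log2 fold change 1.23 ± 0.20, edgeR adjusted p = 0.00132), and Egr1 at 141 ± 26.3 and 88 ± 5.05 CPM (edgeR adjusted p = 0.00247). With the log2 sum of the list as a covariate, 9 of the 37 members were called higher in CD4 cells, 4 of them in the ER and 4 in the cytosol, and 1862 genes in all. Hspa8 then stood at a log2 fold change equal to 0.51 (edgeR adjusted p = 0.0291), Hsp90aa1 0.72 (edgeR adjusted p = 0.0177) and Hspa5 0.40 (edgeR adjusted p = 0.104). The sum of this list moved with genotype in CD4 cells too, and the parts of handling and genotype cannot be told apart by such a fit.

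In CD8 cells the immediate early sum was 5792, 5804 and 6678 CPM in L-gp130 libraries, against 6863, 6688 and 6789 CPM in control replicates 1 to 3 and 3862, 2871 and 3788 CPM in control replicates 4 to 6. Of the 19 genes, 3 were higher and 2 lower, against 10.5% of all genes tested each way. Dnajb1 was at 105, 118 and 112 CPM in the L-gp130 CD8 libraries. It was at 105, 150 and 113 CPM in control CD8 replicates 1 to 3 and 158, 109 and 191 CPM in control CD8 replicates 4 to 6. The groups overlapped, and the log2 fold change of -0.30 did not pass the edgeR test. Control CD8 replicates 4 and 6 were in the lower immediate early set and highest of the controls in Dnaja1, Dnajb1 and Hsph1. Control CD8 replicate 5 was lowest of the controls in both the immediate early and the cytosolic sum. With the immediate early covariate, 11 members were higher and 1, Dnajb9, lower in CD8 cells (log2 fold change of Dnajb9 -0.43, edgeR adjusted p = 0.00321). Cell cycle genes moved with genotype too, with 12 of 12 higher in L-gp130 CD4 cells and 11 of 12 in L-gp130 CD8 cells, and their part in the chaperone result was not tested.

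**Figure D5:**
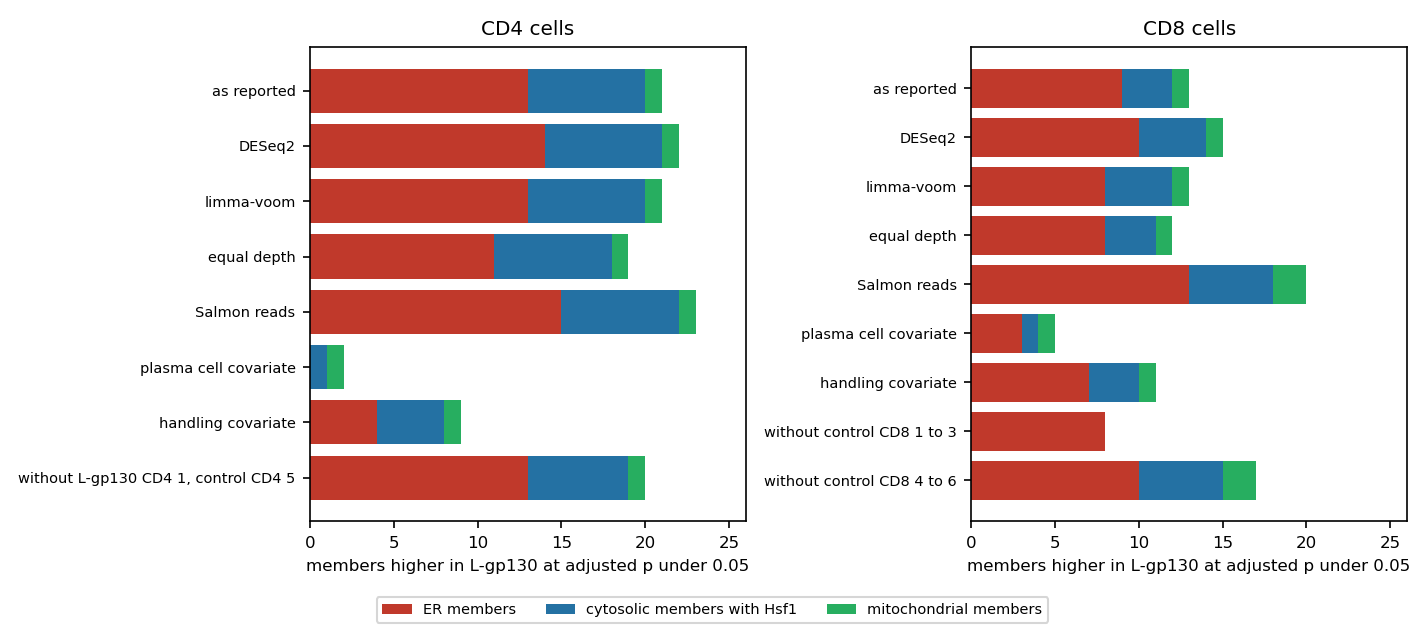
Number of members called higher in L-gp130 cells (edgeR adjusted p under 0.05 unless the bar's label names another tool) under the reported fit and under alternatives, stacked by ER, cytosolic and mitochondrial members, for CD4 cells (left) and CD8 cells (right). The CD4 count is 21 as reported, 2 with the plasma cell covariate and 9 with the handling covariate, and the CD8 count is 13, 5 and 11. In CD4 cells the sums behind both covariates moved with genotype.

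Other genes of these pathways are read against the shares of all genes tested, 11.1% higher and 7.75% lower in CD4 cells and 10.5% each way in CD8 cells. Of 15 further factors and targets of the unfolded protein response, 5 were higher and 2 lower in L-gp130 CD4 cells, and 2 higher and 2 lower of 14 tested in CD8 cells, where both counts lie near the share of all genes. In CD4 cells Chac1, a glutathione-degrading target of Atf4, was higher but scarce, at 0.578 ± 0.114 CPM in L-gp130 libraries and 0.105 ± 0.0824 CPM in control libraries (log2 fold change 2.57 ± 0.46, edgeR adjusted p = 0.00233). Atf5, a stress-induced transcription factor, was at 19.2 ± 6.59 CPM in L-gp130 CD4 and 8.08 ± 1.27 CPM in control CD4 libraries (log2 fold change 1.10 ± 0.22, edgeR adjusted p = 0.00482), and Creb3l2, an Atf6 relative, had 0.52 ± 0.11 (edgeR adjusted p = 0.00796). Xbp1, the transcription factor made active by Ire1, was higher in both cell types, at 90.8 ± 15.3 CPM in L-gp130 CD4 and 64.7 ± 4 CPM in control CD4 libraries and at 70.1 ± 4.05 CPM in L-gp130 CD8 and 43.2 ± 7.62 CPM in control CD8 libraries (log2 fold change 0.44 ± 0.11 and 0.70 ± 0.12, edgeR adjusted p = 0.0148 and 0.00278), where its CD4 value was added after it was seen. The fifth gene higher in CD4 cells was Asns, asparagine synthetase (2.39 ± 0.63, edgeR adjusted p = 0.0232). The 2 lower were Eif2ak3, given above, and the regulator Crebrf (-0.48 ± 0.14, edgeR adjusted p = 0.0264), likewise added after their values were seen. Crebrf was lower in CD8 cells too (-0.50 ± 0.15, edgeR adjusted p = 0.0421). In CD8 cells Asns was at 8.92 ± 4.02 CPM in L-gp130 libraries and 1.64 ± 0.78 CPM in control libraries (log2 fold change 2.41 ± 0.38, edgeR adjusted p = 0.00202), while Mbtps1, the protease that starts Atf6 cleavage, was lower (-0.26 ± 0.07, edgeR adjusted p = 0.0254).

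The counts for the route into the ER lay near or below the shares of all genes. Of 21 translocon and signal peptide genes, 1 was higher in CD4 cells, the channel subunit Sec61a1 (log2 fold change 0.19 ± 0.06, edgeR adjusted p = 0.0341), and in CD8 cells 1 was higher (Ssr2, 0.21 ± 0.06) and 1 lower (Spcs2, -0.24 ± 0.07). Rpn1, a subunit of the oligosaccharyltransferase that attaches N-glycans, was the 1 of 10 called in each cell type, at 145 ± 15.2 CPM in L-gp130 CD4 and 115 ± 7.36 CPM in control CD4 libraries and at 157 ± 6.05 and 115 ± 9.31 CPM in L-gp130 and control CD8 libraries (edgeR adjusted p = 0.0184 and 0.00247). Of 18 other ER folding and degradation genes, the segregase Vcp and the prolyl isomerase Fkbp2 were higher and Edem3 lower in CD4 cells (log2 fold change 0.29 ± 0.06, 0.44 ± 0.13 and -0.30 ± 0.08, edgeR adjusted p = 0.0066, 0.0305 and 0.0242). In CD8 cells Dnajc10, a disulfide reductase, was the one called, and it was lower (-0.32 ± 0.09, edgeR adjusted p = 0.0329).

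Of 21 Hsp90 and Hsp70 co-chaperones, 7 were higher and 1 lower in CD4 cells, and 1 higher and 1 lower in CD8 cells. Stip1, which hands clients from Hsp70 to Hsp90, was at 178 ± 37.2 CPM in L-gp130 CD4 and 113 ± 9.27 CPM in control CD4 libraries (log2 fold change 0.70 ± 0.14, edgeR adjusted p = 0.00481). St13, an Hsp70 cofactor, had 0.58 ± 0.12 and Chordc1, an Hsp90 cofactor, 0.43 ± 0.09 (edgeR adjusted p = 0.00593 and 0.00546). In CD8 cells Bag2, an Hsp70 exchange factor, was the one higher, at 11.1 ± 4.36 CPM in L-gp130 libraries and 5.07 ± 0.539 CPM in control libraries (log2 fold change 1.10 ± 0.22, edgeR adjusted p = 0.00547). Of the 8 subunits of the chaperonin TRiC, which folds actin and tubulin, 4 were higher in CD4 and 3 in CD8 cells, with Cct3 (0.30 ± 0.07 and 0.35 ± 0.08) and Tcp1 (0.27 ± 0.07 and 0.37 ± 0.09) called in both. Of 8 mitochondrial folding and protease genes, the membrane protease Afg3l2 was called in each cell type (0.19 ± 0.06 and 0.30 ± 0.09, edgeR adjusted p = 0.0424 and 0.0374).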

How the data were processed

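Polyadenylated RNA of 21 libraries was sequenced as 150 bp unstranded pairs. Estimated counts per gene and, per transcript, estimated counts and TPM were deposited by the authors, and the submitters' processing notes name build GRCm38 and the tools Salmon 1.5.2, edgeR 3.34.1, Trimmomatic 0.39 and cutadapt 3.4. Symbols and coordinates came from the GENCODE vM21 annotation of GRCm38, which matched 51115 of 51201 gene IDs.

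Counts were rounded and tested in edgeR 4.0.16 (R 4.3.3; TMM, filterByExpr by group, robust quasi-likelihood F test, two-sided, sex as covariate) with Benjamini-Hochberg adjustment over all genes tested, CD4 and CD8 tables apart. The SE of a log2 fold change is its size divided by the square root of F. The difference between cell types was tested in 1 fit of all 21 libraries on transcript reads summed per gene, where 694 transcripts with no gene match held 0.144% to 0.209% of reads. Levels are TMM-normalised CPM, computed here. Each test sets the difference between groups against the spread between libraries, and the fit of all 21 took CD4 and CD8 libraries as independent. DESeq2 1.42.0 and limma 3.58.1 (voom) were alternatives. Tested on simulated counts with 100 genes per fold size, the CD4 fit recovered 79% of genes at a log2 fold change of 1 and the CD8 fit 89%. Among unchanged genes, 9 and 12 were called. Smaller fold changes, such as those of most members, were not simulated. Changed genes were drawn from above a minimum mean level, so the recovery does not cover genes as scarce as Hspa1a, Hspa1b and Hspb1.

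Named in full were the members the design fixed, those called with the smallest adjusted p in their list, and up to 3 called genes of each pathway list. The members, lists and tests were chosen with earlier results of these data known. No 2 libraries of a group agreed within sampling noise (lowest chi-square per gene 9.10 over 48 pairs). Mouse numbers run within each group and do not pair genotypes. Promoter sequences are RefSeq's, and counting error alone does not cover the variation between mice.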

Additional observations from a re-analysis of the deposited data

Results flagged for a closer look

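Among 111 sets of 6 libraries (37 members in 3 groups), 7 held a library that stood far from the other 5, where chance gives about 1 in 20. Of these, 3 were in L-gp130 CD4 replicate 1, the library apart on the second principal component: Creld2 at 48.5 CPM against 35.1 in the next library, Syvn1 at 103 against 82.3 and Hspa1a at 3.09 against 1.06. Sel1l was high in L-gp130 CD4 replicate 2, at 106 against 91.3 CPM, and low in control CD4 replicate 1, at 76.9 against 89.6 CPM. Ern1 was low in control CD4 replicate 1, at 24.5 against 31.7 CPM. Bag3 was high in control CD8 replicate 4, at 7.23 against 5.51 CPM. Without L-gp130 CD4 replicate 1, the log2 fold change of Creld2 was 0.65 (edgeR adjusted p = 0.000318).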

How the results depend on the processing

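Recomputed under the alternatives, member and named gene results kept direction and call in 3284 cases, lost the call in 470, gained it in 48 and turned direction in 47, all 47 in results not called as reported, of which Dnajb9 in CD8 cells was called in 1 alternative (below). Counts stayed within 1.5 times in 678 cases and moved further in 57, and the cause was not tested. In CD4 cells the plasma cell covariate left 1270 genes called with 0 ER and 1 cytosolic member higher, and the handling covariate 1862 genes with 4 ER and 4 cytosolic. In CD8 cells the plasma cell covariate left 1198 genes with 3 ER and 1 cytosolic member higher. The handling covariate, the replicate block and leaving out controls 1 to 3 or 4 to 6 gave 1 ER member lower. Cytosolic members higher were 6 with the block, 5 with transcript reads, 0 without controls 1 to 3 and 5 without controls 4 to 6, and mitochondrial members 2, 0 and 2 in the last 3. The replicate block called 18 members higher in CD4 cells and 13 in CD8 cells, but correlations of same-numbered libraries ran from -0.29 to 0.22, and the numbers do not pair them. For the cell type difference, 955 genes were called with DESeq2 and 353 with joined tables, and 1 ER member was lower with DESeq2 or without the sex covariate. Among controls, ER members lower in CD4 were 2 with RLE, 1 with no filter, 2 with DESeq2 (5 higher), 3 with the block and 1 with joined tables. Leaving out 1 library gave 1411 to 3642 genes in CD4, 1374 to 2967 in CD8 and 236 to 984 for the difference. ER members higher were 3 to 14 in CD4, 4 to 9 in CD8 and 0 to 1 for the difference, where 0 to 1 were lower. In controls 3 to 7 ER members were lower, and in CD8 1 to 5 cytosolic and 0 to 2 mitochondrial members were higher.

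These log2 fold changes turned direction. In CD4 cells they were 0.0077 for Dnajb9 and 0.056 for Ero1l with transcript reads, -0.15 for Syvn1 and -0.25 for Hspb1 with the plasma cell covariate, and -0.0093 for Hspe1 and -0.024 for Hspa9 with the handling covariate. In CD8 cells Dnajb9 was 0.39 without controls 1 to 3 (edgeR adjusted p = 0.0449) and Dnaja1 -0.18. With the block Dnajc3 was 0.0037, Herpud1 -0.037, Edem1 0.00093, Ern1 0.031 and Hsf1 -0.13. Without controls 4 to 6 Dnajc3 was 0.0068, Herpud1 -0.033, Edem1 0.0048, Ern1 0.040 and Hsf1 -0.12. The plasma cell covariate gave Herpud1 -0.069, Hspe1 0.057 and Hsf1 -0.072, the handling covariate Herpud1 -0.017, Ern1 0.028 and Hsf1 -0.071, transcript reads Herpud1 -0.041 and Ern1 0.12, and RLE and DESeq2 Ern1 0.0024 each. With 1 library left out, the ranges that crossed 0 were in CD4 -0.11 to 0.088 (Dnajb9) and -0.18 to 0.71 (Hspb1), and in CD8 -0.054 to 0.20 (Dnaja1), -0.13 to 0.061 (Edem1), -0.10 to 0.092 (Ern1), -0.082 to 0.11 (Herpud1), -0.021 to 0.056 (Hsf1) and -0.13 to 0.025 (Hspe1). The share of spliced Xbp1 was not run, since no annotated transcript used here lacks its intron. Hspa1a, Hspa1b and Hspb1 lie at a few CPM or less, where depth limits what a test can show.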
